A study of Rattus norvegicus with 15 samples.

Results

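The genes described here are 10 rat genes for small leucine-rich proteoglycans and matricellular proteins of the liver matrix: Dcn, Bgn, Lum, Fmod, Fn1, Sparc, Thbs1, Thbs2, Postn and Tnc. They were taken as the rows of the deposited count table that carry these symbols, 10 of 32623 genes, and all are annotated as protein coding. The filter on low counts kept 8 of the 10 (14417 of all genes), and Postn and Tnc did not pass it. Livers of male Wistar rats were compared in 3 groups: control rats, rats that inhaled CCl4, a hepatotoxin that causes cirrhosis, for 12 weeks with 0.35 g/L phenobarbital in the drinking water, and rats on the same CCl4 and phenobarbital plan that also received eplerenone, a blocker of the mineralocorticoid receptor, at 100 mg/kg in hazelnut spread from week 8 on. Control rats had neither CCl4 nor phenobarbital, so both agents differ between control and the other groups. Livers of the CCl4-treated rats were taken 7 to 10 days after the last inhalation. The study picked the rats for sequencing by how well cirrhosis induction or eplerenone treatment had worked in them, which limits how far the groups stand for all treated animals. The table holds 4 control, 5 CCl4 and 5 CCl4+eplerenone livers, each from a separate rat, and control replicate 1 was not analysed here. The study states that it left out 1 control that differed from the other 4 in its principal component analysis. A group trimmed on expression can show less spread than untrimmed controls would.

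Small leucine-rich proteoglycans are secreted proteins with a core of leucine-rich repeats that bind collagen and regulate how fibrils form. Decorin (Dcn) and biglycan (Bgn) carry chondroitin or dermatan sulphate chains, lumican (Lum) and fibromodulin (Fmod) carry keratan sulphate chains, and decorin and biglycan also bind TGF-beta. Matricellular proteins sit in the matrix and modulate how cells attach and signal rather than bearing load, and many of them are made after injury. Fibronectin (Fn1) is made by hepatocytes in its soluble plasma form and by mesenchymal cells in its matrix form. In the liver, stellate cells and portal fibroblasts are the best known makers of the other proteins.

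Promoter sequences were at hand for 6 of the 10 genes, Lum, Fmod, Sparc, Thbs1, Postn and Tnc, from RefSeq on the build GRCr8. The 250 bases before the annotated start are shown for Sparc, which rose with CCl4, for Lum, which varied together with Sparc among the CCl4-treated rats, and for Postn, for which no read was counted in any control. Each is written 5′ to 3′ on the strand of its gene, at chr7:34245456-34245705 on the plus strand for Lum, at chr10:40038817-40039066 on the minus strand for Sparc and at chr2:140677811-140678060 on the plus strand for Postn. Capitals mark every match on either strand to 1 of 5 short motifs, the TATA box TATAAA, the GC box GGGCGG, the CCAAT box CCAAT, the AP-1 site TGANTCA and the SMAD box CAGAC, which binds the transcription factors of the TGF-beta pathway.
Lum: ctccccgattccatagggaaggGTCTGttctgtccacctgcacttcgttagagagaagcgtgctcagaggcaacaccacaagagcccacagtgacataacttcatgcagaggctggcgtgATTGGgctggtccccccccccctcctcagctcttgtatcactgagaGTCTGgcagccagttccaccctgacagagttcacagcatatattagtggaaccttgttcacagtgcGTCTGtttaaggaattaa
Sparc: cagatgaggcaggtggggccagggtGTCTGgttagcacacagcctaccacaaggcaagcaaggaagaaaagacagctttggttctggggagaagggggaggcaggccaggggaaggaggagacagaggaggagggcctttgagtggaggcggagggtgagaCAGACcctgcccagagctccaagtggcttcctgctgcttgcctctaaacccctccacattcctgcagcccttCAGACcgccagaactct
Postn: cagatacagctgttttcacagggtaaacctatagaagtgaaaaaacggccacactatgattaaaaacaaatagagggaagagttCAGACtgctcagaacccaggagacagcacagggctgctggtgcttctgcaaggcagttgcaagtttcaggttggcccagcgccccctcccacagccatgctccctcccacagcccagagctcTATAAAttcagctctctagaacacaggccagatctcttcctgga
The SMAD box letters occurred in 5 of the 6 windows, 3 times each in Lum and Sparc and once in Postn, and not in Thbs1. They also occurred in 42.94% of 33465 rat promoter windows of this length, so a match is common. TATAAA was found in Postn, at -44 from the start, and in Tnc, and in 12.93% of all windows. GGGCGG was in 3 of the 6 windows (30.47% of all), CCAAT in 3 (34.02% of all) and TGANTCA in 0 (6.341% of all). These matches describe letters only.

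Each library held between 16157491 and 21574767 reads counted on genes. Levels are given as FPM, reads per 1000000 reads of the library after TMM scaling, and are compared between samples of 1 gene and not between genes. TMM factors were lower in controls (0.847 to 0.877) than in CCl4 (0.968 to 1.21) and CCl4+eplerenone livers (0.925 to 1.40). On the first principal component, which held 66.3% of the variance of the 500 most variable genes, CCl4 replicate 5 stood at 13.5, away from the other CCl4 livers (-47.4 to -37.4) and toward the controls (43.8 to 49.3), and CCl4+eplerenone livers were spread from -43.1 (replicate 3) to 26.7. Because of these positions, values without CCl4 replicate 5 or CCl4+eplerenone replicate 3 are given beside several results. The animal names in the labels carry the leading number 13 or 16 in controls and 15 or 20 in CCl4-treated rats. What these prefixes stand for is not given in the sources used here, and they cannot be told apart from CCl4 treatment.

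The comparison of CCl4 with control livers asks how CCl4-induced cirrhosis changed the mRNA of these matrix genes. Dcn, Bgn, Sparc and Thbs2 rose, by 1.98- to 3.43-fold, and Fn1 fell. Lum, Fmod and Thbs1 did not pass the test. A gene was called at an adjusted p below 0.05 in the quasi-likelihood test of edgeR, with p-values adjusted by the Benjamini-Hochberg method over the 14417 genes tested. By this rule 4 of the 8 genes tested were called higher, against 13.4% of all genes, and 1 of 8 was called lower, against 6.71% of all genes. The same 5 were called by both edgeR and DESeq2, the tool pair that the study used, against 20.1% of all genes. The median log2 difference was 1.04 over the 8 genes and -0.01 over all genes tested. In whole liver RNA, a change in the number of cells of a type and a change in RNA per cell cannot be told apart.

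**Figure D1:**
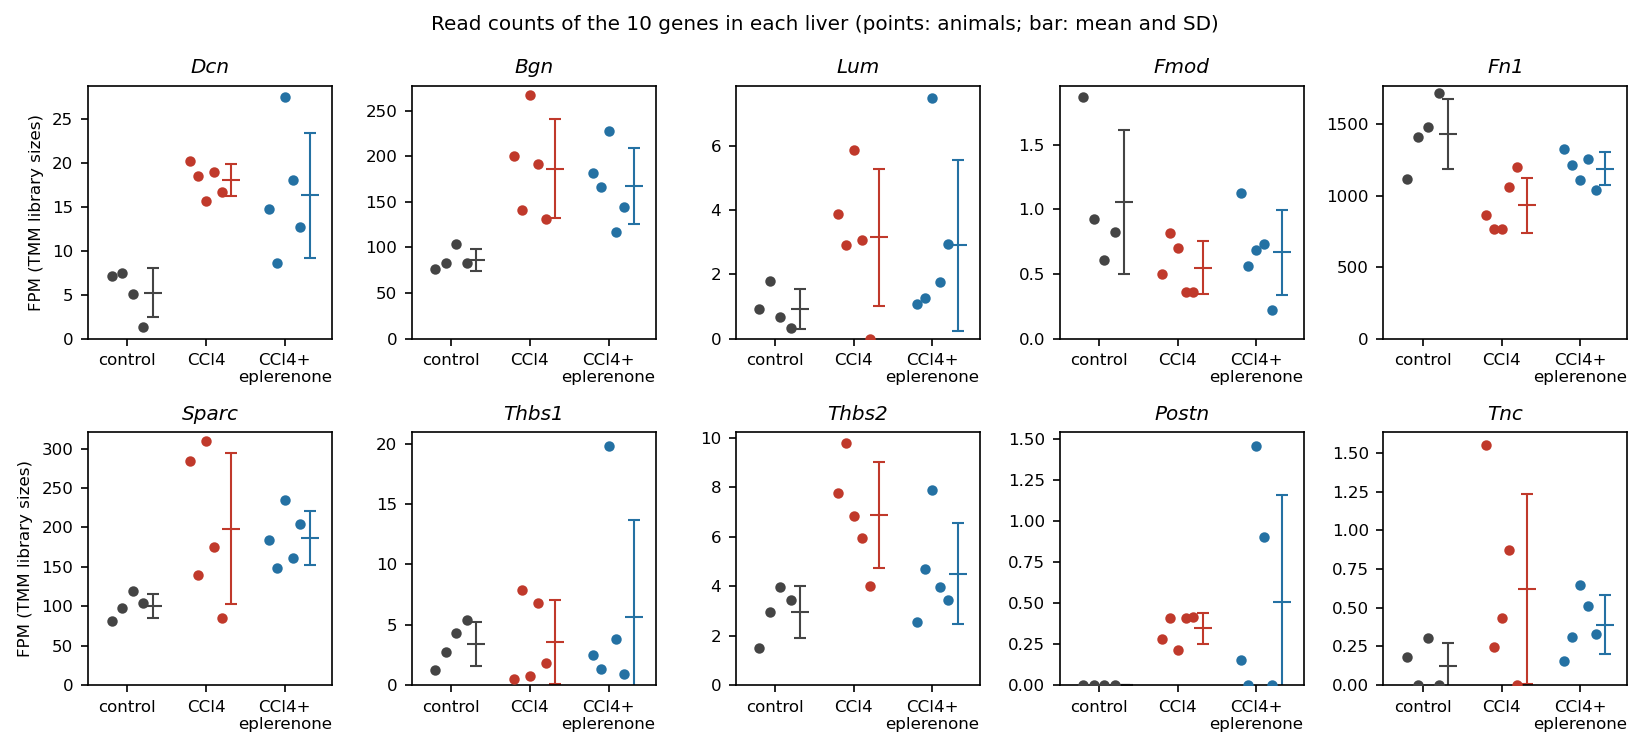
FPM (reads per 1000000 reads, TMM library sizes, y axis) of each of the 10 genes in every liver, by group. Points are rats in the order of their replicate numbers, and the bar beside them gives mean and SD over 4 control, 5 CCl4 and 5 CCl4+eplerenone livers. Dcn, Bgn and Thbs2 show CCl4 livers all above the controls, and Postn shows 0 in the 4 controls.

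Decorin showed the largest rise of the genes called. Dcn (ENSRNOG00000004554, chromosome 7) was at 7.12, 7.46, 5.07 and 1.34 FPM in control replicates 2 to 5, and at 20.2, 18.6, 15.7, 19.0 and 16.7 FPM in CCl4 replicates 1 to 5. The lowest CCl4 liver was above the highest control, and CCl4 livers lay close to each other, with a coefficient of variation of 10.2% against 53.6% in controls. The log2 difference was 1.78 ± 0.40 (SE, 95% interval 0.93 to 2.63), 3.43-fold, with an adjusted p of 0.00813 in edgeR's quasi-likelihood test. This call was made in each of 14 fits that left 1 library out.

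Biglycan rose too. Bgn (ENSRNOG00000055962, chromosome X) was at 76.6, 82.7, 104 and 82.7 FPM in the controls, and at 200, 141, 267, 191 and 131 FPM in CCl4 replicates 1 to 5. Again the groups did not overlap. Bgn differed by a log2 of 1.11 ± 0.24 (SE, 95% interval 0.60 to 1.61), 2.15-fold, with an adjusted p of 0.00641 in edgeR's quasi-likelihood test, and it too was called in each of the 14 fits. Groups that do not overlap were found in 3 of the 8 genes (Dcn, Bgn and Thbs2) against 20.2% of all genes.

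Lumican depended on 1 liver. Lum (ENSRNOG00000004610, chromosome 7) was at 0.905, 1.79, 0.672 and 0.318 FPM in the controls, at 3.88, 2.90, 5.88 and 3.08 FPM in CCl4 replicates 1 to 4, and had no read in CCl4 replicate 5, where 3 reads would stand for 0.179 FPM. So 4 CCl4 livers were above every control and the fifth was below every control. Over all 5, the log2 difference was 1.76 ± 0.88 (SE, 95% interval -0.10 to 3.62) with an adjusted p of 0.156 in edgeR's quasi-likelihood test. Without CCl4 replicate 5 it was 2.08 with an adjusted p of 0.0233 in the same test. That liver was picked for lying toward the controls on the first principal component and had the lowest Lum of the 5. Leaving it out had to widen the difference, so this value is no separate support for a rise.

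Fibromodulin, the other keratan sulphate proteoglycan, was near the limit of detection, with 4 to 31 reads per library. Fmod (ENSRNOG00000003183, chromosome 13) was at 1.87, 0.925, 0.610 and 0.827 FPM in the controls and at 0.499, 0.816, 0.701, 0.359 and 0.357 FPM in CCl4 replicates 1 to 5. The groups overlapped, and the log2 difference was -0.94 ± 0.50 (SE, 95% interval -2.01 to 0.13) with an adjusted p of 0.185 in edgeR's quasi-likelihood test.

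Fibronectin was the only gene of the 10 called lower. Fn1 (ENSRNOG00000014288, chromosome 9) was at 1118, 1410, 1482 and 1718 FPM in the controls and at 867, 764, 763, 1060 and 1202 FPM in CCl4 replicates 1 to 5. CCl4 replicate 5 lay above the lowest control, so the groups overlapped. The log2 difference was -0.62 ± 0.20 (SE, 95% interval -1.05 to -0.19), 1.54-fold lower, with an adjusted p of 0.0425 in edgeR's quasi-likelihood test. The call was lost on leaving out any of 9 libraries (adjusted p 0.0532 to 0.133). These were control replicates 3 to 5, CCl4 replicates 1 to 4 and CCl4+eplerenone replicates 1 and 4. Of 11 other settings, 6 kept the call. It was lost with libraries scaled by total counts, where the difference was -0.33 and the adjusted p 0.265. Fn1 also lost it with no filter on low counts (adjusted p 0.0833) and with a minimum of 10 reads per liver (0.0543). The same held with only the 2 groups compared (0.0674) and with the replicate number as a block (0.0869). Scaling by total counts moved the median of all genes by 0.29 on the log2 scale. The share of called genes that were higher went from 66.7% to 89.3%. Relative to that median Fn1 was lower by 0.60 there and by 0.61 with TMM. Rescaling shifts most genes nearly alike, so these values had to be close and do not bear on the call.

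Sparc, which encodes a collagen-binding glycoprotein that loosens cell attachment, rose, with 4 of 5 CCl4 livers above every control. Sparc (ENSRNOG00000012840, chromosome 10) was at 81.9, 97.2, 119 and 104 FPM in the controls and at 285, 140, 309, 175 and 84.9 FPM in CCl4 replicates 1 to 5. Replicate 5 sat inside the control range. Sparc differed by a log2 of 0.98 ± 0.31 (SE, 95% interval 0.32 to 1.64), 1.98-fold, with an adjusted p of 0.0376 in edgeR's quasi-likelihood test. Without CCl4 replicate 5 it was 1.18 with an adjusted p of 0.00403 in the same test. That liver was picked for lying toward the controls and had the lowest Sparc of its group. Its removal had to widen the difference, so the smaller p is no separate support. The call was lost without any 1 of the 4 controls or of CCl4 replicates 1, 3 and 4 (adjusted p 0.0537 to 0.0967).

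The thrombospondins, secreted glycoproteins that bind CD36 and CD47, gave separate results, Thbs2 called higher and Thbs1 not called, though the difference between them was not tested. Thrombospondin 1 also activates latent TGF-beta. Thbs1 (ENSRNOG00000045829, chromosome 3) was at 1.21, 2.72, 4.33 and 5.41 FPM in the controls and at 0.499, 7.88, 0.755, 6.82 and 1.84 FPM in CCl4 replicates 1 to 5. CCl4 livers lay on both sides of the control range, and the log2 difference was 0.07 ± 0.90 (SE, 95% interval -1.85 to 1.99) with an adjusted p of 0.964 in edgeR's quasi-likelihood test, an interval that runs from 0.28- to 3.98-fold. Thbs2 (ENSRNOG00000010529, chromosome 1) was at 1.51, 2.95, 3.97 and 3.43 FPM in the controls and at 7.77, 9.79, 6.85, 5.95 and 3.99 FPM in CCl4 replicates 1 to 5. All CCl4 livers were above the controls, replicate 5 only just (3.99 against 3.97 FPM in the highest control). The log2 difference of Thbs2 was 1.21 ± 0.37 (SE, 95% interval 0.42 to 2.00), 2.32-fold, with an adjusted p of 0.0337 in edgeR's quasi-likelihood test, a call lost without any 1 of control replicates 2, 3 and 5 or CCl4 replicates 1 to 4 (adjusted p 0.0527 to 0.0863).

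Periostin and tenascin-C, matricellular proteins that are scarce in healthy adult organs and appear in wounds and fibrosis, had few reads. Postn (ENSRNOG00000012660, chromosome 2) had 0 reads in each of the 4 controls and 5, 10, 4, 8 and 7 reads in CCl4 replicates 1 to 5. Every CCl4 liver had reads and no control did. The CCl4 mean was 0.346 FPM, at least 1.90-fold higher than the 0.182 FPM that 3 reads per control library would stand for on average. In an edgeR quasi-likelihood fit with no filter on low counts, over 21282 genes, the adjusted p of Postn was 0.0456. Tnc (ENSRNOG00000058645, chromosome 5) had 3, 0, 5 and 0 reads in the controls and 28, 6, 8, 17 and 0 reads in CCl4 replicates 1 to 5. Tnc overlapped between groups, CCl4 replicates 2 (0.245 FPM) and 5 lying below the highest control (0.305 FPM), and its adjusted p in the same unfiltered fit was 0.159.

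**Figure D2:**
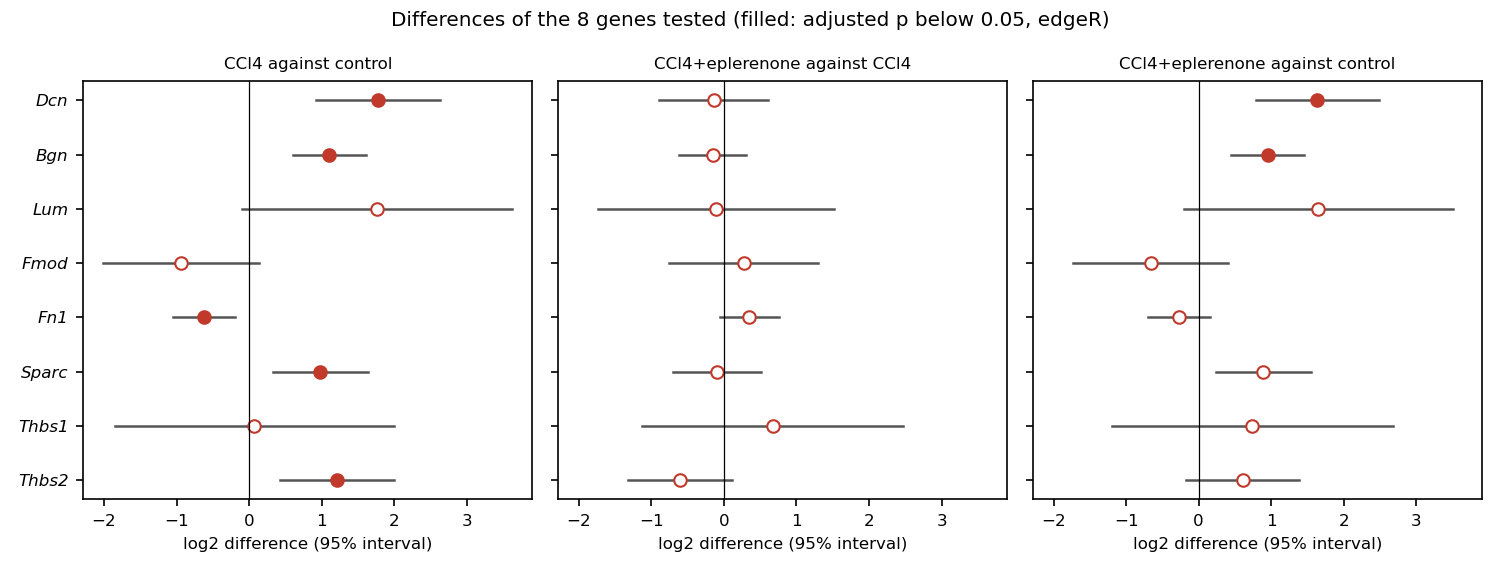
Log2 differences (x axis) with 95% intervals (lines) of the 8 genes tested in the 3 comparisons, from 1 edgeR quasi-likelihood fit. Filled points have an adjusted p below 0.05, which is the case for 5 genes in CCl4 against control, 0 in CCl4+eplerenone against CCl4 and 2 in CCl4+eplerenone against control.

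The comparison of CCl4+eplerenone with CCl4 livers asks whether blocking the mineralocorticoid receptor during the last weeks altered these genes. None of the 8 genes was called by edgeR's quasi-likelihood test or by DESeq2, and none had an unadjusted p below 0.05. Of all genes edgeR called 2, 0.0139%, DESeq2 called 74, and 14.4% had an unadjusted p below 0.05 in edgeR. The groups overlapped in all 8 genes, against 0.964% of all genes without overlap. The median log2 difference of the 8 genes was -0.10 and that of all genes 0.01.

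Dcn, at 14.8, 8.57, 27.5, 18.1 and 12.7 FPM in CCl4+eplerenone replicates 1 to 5, had about the mean of the CCl4 livers (16.3 against 18.04 FPM) but a wider spread, with a coefficient of variation of 43.7% against 10.2%. That difference in spread was not tested. The log2 difference was -0.14 with a 95% interval of -0.90 to 0.61, that is, 0.54- to 1.53-fold. Bgn was at 182, 166, 227, 117 and 144 FPM, with a log2 difference of -0.15 and an interval of -0.62 to 0.31. The Bgn difference between CCl4 and control was 1.11, with its own interval of 0.60 to 1.61. Both comparisons share the CCl4 livers, and the 2 differences were not tested against each other.

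Lum was at 1.07, 1.25, 7.49, 1.75 and 2.95 FPM in CCl4+eplerenone livers, high in replicate 3 alone. Its log2 difference from CCl4 was -0.11, with a wide interval of -1.73 to 1.52, 0.074 with total counts in place of TMM and -0.86 without CCl4+eplerenone replicate 3, none of them called. Fmod was at 1.12, 0.563, 0.688, 0.734 and 0.219 FPM, with a difference of 0.28 (interval -0.75 to 1.30). Neither proteoglycan gives more than a loose bound here.

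Fn1 was at 1324, 1216, 1107, 1257 and 1037 FPM in CCl4+eplerenone livers, of which 3 were above every CCl4 liver. The log2 difference was 0.35 (interval -0.06 to 0.76) with an adjusted p of 0.384 in edgeR's quasi-likelihood test, in the direction opposite to that of CCl4 against control. Both comparisons share the CCl4 livers. Sparc was at 184, 148, 235, 161 and 205 FPM, with a difference of -0.09 (interval -0.70 to 0.52), and its 5 values fell within the range of the CCl4 livers.

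Thbs1 was at 2.50, 1.31, 19.8, 3.78 and 0.874 FPM, and replicate 3 was the highest of the 14 livers. The log2 difference of Thbs1 was 0.67 (interval -1.13 to 2.47) with this liver and -0.79 without it, and neither was called. Thbs2 was at 2.56, 4.69, 7.89, 3.95 and 3.44 FPM, with 4 of 5 livers below 5 FPM and replicate 3 within the CCl4 range. Its difference was -0.61 (interval -1.32 to 0.11) with an adjusted p of 0.392 in edgeR's quasi-likelihood test. With CCl4 replicate 5 and CCl4+eplerenone replicate 3 both left out, which leaves 4 rats per group, it was -1.07 with an adjusted p of 0.0474, and Thbs2 was then 1 of 8 genes called. In that fit 1294 of 14126 genes were called between the CCl4+eplerenone and CCl4 groups in place of 2. Both livers were left out because each lay toward the other group on the first principal component. Leaving them out thus widens the gap between the groups, and the Thbs2 call in that fit is no separate support.

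Postn had 3, 0, 36, 16 and 0 reads in CCl4+eplerenone replicates 1 to 5, so it was both highest and absent within this group. Its adjusted p against CCl4 was 0.816 in the unfiltered edgeR quasi-likelihood fit. Tnc had 3, 5, 16, 9 and 6 reads, and its adjusted p was 0.749 in that fit.

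Sample name prefixes split the CCl4-treated rats into 2 and 3 livers with eplerenone against 3 and 2 without (prefixes 15 and 20). Within prefix 15, the mean log2 FPM with eplerenone minus that without was -0.68 for Dcn, -0.48 for Sparc, -1.70 for Lum, 0.67 for Fn1 and -1.19 for Thbs2. Within prefix 20 the same differences were 0.05 for Dcn, 0.70 for Sparc, 2.51 for Lum, 0.00175 for Fn1 and -0.04 for Thbs2. Sparc and Lum thus pointed opposite ways in the prefixes, CCl4 replicate 5 being 1 of the 2 livers of prefix 20 without eplerenone. For the remaining genes the differences were -0.18 and -0.02 for Bgn, 0.27 and 0.35 for Fmod, 0.26 and 0.20 for Thbs1, -1.14 and 0.08 for Postn, and -0.99 and 0.77 for Tnc, in prefixes 15 and 20. With 2 or 3 livers a side these are values with no test.

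The comparison of CCl4+eplerenone with control livers asks what remained different from control under eplerenone. Dcn and Bgn rose, and none of the 8 fell. These 2 of the 8 genes were called higher, against 4.33% of all genes, and both were called by both tools, against 5.20% of all genes. The median log2 difference was 0.82 over the 8 genes and 0.01 over all genes. With libraries scaled by total counts, the median of all genes moved by 0.32 and the share of called genes that were higher went from 82.9% to 94.9%.

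For Dcn the log2 difference from control was 1.64 ± 0.40 (SE, interval 0.79 to 2.48), 3.11-fold, with an adjusted p of 0.0274 in edgeR's quasi-likelihood test, and for Bgn it was 0.95 ± 0.23 (SE, interval 0.45 to 1.45), 1.93-fold, with an adjusted p of 0.0289. The Dcn call was lost without control replicate 4 or 5 or CCl4+eplerenone replicate 3 (adjusted p 0.0509 to 0.0782), and that of Bgn without control replicate 2, 3 or 5 or CCl4+eplerenone replicate 1 or 3 (0.0549 to 0.0989). Sparc was 1.86-fold the control level, with a log2 difference of 0.89 ± 0.31 and an adjusted p of 0.107 in edgeR's quasi-likelihood test. DESeq2 gave Sparc an adjusted p of 0.0437, and edgeR 0.0367 without CCl4 replicate 5, a liver outside this comparison that enters through the shared estimate of spread. All 5 CCl4+eplerenone livers lay above the highest control for Sparc, Dcn and Bgn, 3 of 8 genes, against 10.9% of all genes without overlap.

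Of the others, Lum differed from control by 1.65 (interval -0.21 to 3.51, and 0.92 without CCl4+eplerenone replicate 3), Thbs2 by 0.61 (-0.17 to 1.39), Thbs1 by 0.74 (-1.20 to 2.68, but -0.68 without CCl4+eplerenone replicate 3), Fn1 by -0.27 (-0.70 to 0.16, but 0.050 with total counts in place of TMM) and Fmod by -0.66 (-1.72 to 0.40) on the log2 scale, none called. Postn had a mean of 0.503 FPM, at least 2.76-fold higher than the control floor, with 2 of 5 livers at 0 reads, and without CCl4+eplerenone replicate 3, an alternative chosen after seeing the data, the mean was 0.264 FPM, at least 1.45-fold higher. It had an adjusted p of 0.0636 in the unfiltered edgeR quasi-likelihood fit. For Tnc that p was 0.459.

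**Figure D3:**
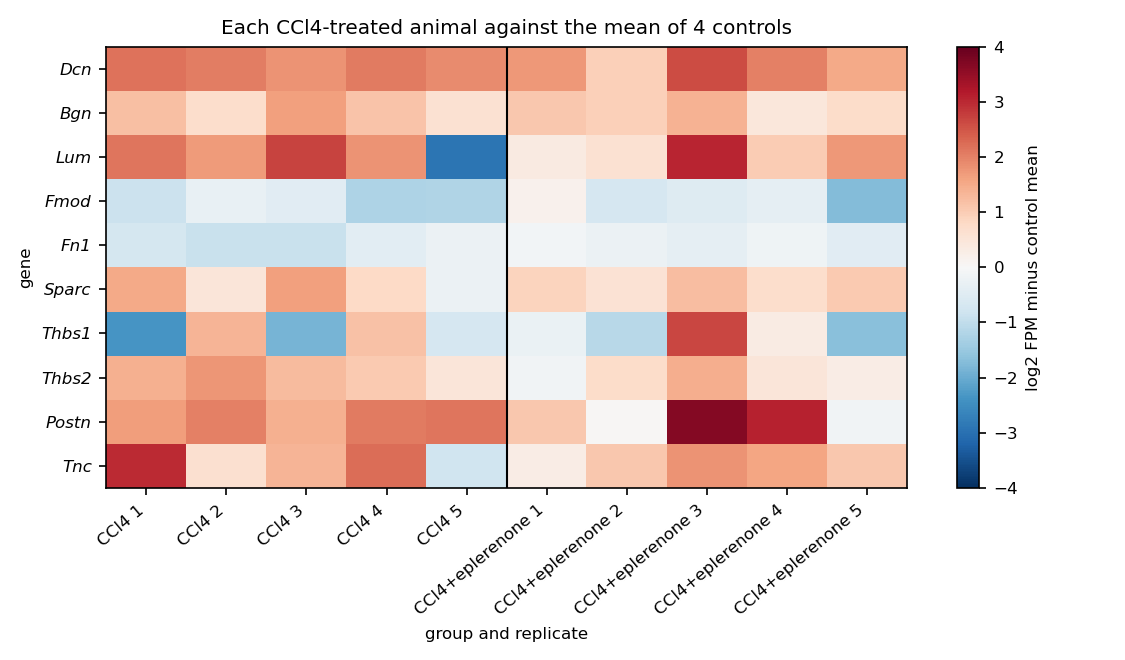
Log2 FPM of each gene (rows) in each CCl4-treated liver (columns, 5 without and 5 with eplerenone) minus the mean of the 4 controls, with red above and blue below control. CCl4 replicate 5 is below the control mean for Lum, Fmod, Fn1, Sparc, Thbs1 and Tnc but not for Dcn, Bgn, Thbs2 or Postn, and CCl4+eplerenone replicate 3 is the highest for 4 of the 10 genes.

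The 10 CCl4-treated livers did not rank alike for all genes. CCl4 replicate 5 was the lowest of the 10 for Lum, Sparc and Tnc, yet its Dcn (16.7 FPM) was within the range of the other CCl4 livers and its Postn (0.417 FPM) was the highest of them. CCl4+eplerenone replicate 3 was the highest of the 10 for Dcn, Lum, Thbs1 and Postn, yet its Bgn and Sparc were within the range of the other livers. Over the 10 livers, 45 pairs of the genes were compared by permutation tests (two-sided, 100000 resamples) of log2 FPM. Livers with and without eplerenone were pooled, and treatment was not taken into account. A difference between these groups in both genes of a pair therefore enters r.

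Sparc and Lum varied together, with Pearson r = 0.856 (permutation p = 0.00211, adjusted 0.0475) and Spearman rho = 0.782 (p = 0.0109, adjusted 0.157). Without the 2 livers farthest from the median of Lum, CCl4 replicate 5 and CCl4+eplerenone replicate 1, r was 0.759. Dcn and Postn had r = 0.867 (permutation p = 0.00107, adjusted 0.0475) and rho = 0.770 (p = 0.0129, adjusted 0.157), and r = 0.780 without CCl4+eplerenone replicates 2 and 3. These 2 of 45 pairs passed the Benjamini-Hochberg adjustment by r and none by rho. Postn had not passed the filter on low counts. It had 0 reads in CCl4+eplerenone replicates 2 and 5, where its log2 FPM is set by the prior count and the library size. The r of Dcn and Postn without replicates 2 and 3 still includes replicate 5. Bgn and Sparc (r = 0.756, permutation p = 0.0110, adjusted 0.101), and Fn1 and Thbs2 in opposite directions (r = -0.770, permutation p = 0.0109, adjusted 0.101), did not pass. Lum and Tnc (r = 0.773) fell to r = 0.305 without CCl4 replicate 5 and CCl4+eplerenone replicate 1. Each name prefix holds 5 of the 10 livers, and no correlation was computed within a prefix.

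Genes with the pattern most like each member over the 10 CCl4-treated livers were sought among all genes tested, by Pearson r of log2 FPM, with no test since they are the highest of all genes tested. For Sparc they were RGD1359290 (r = 0.963), Nudt1 (0.956) and Col1a1 (0.953), the last the main chain of type I collagen. For Lum they were Prss22 (0.970), Mcam (0.949) and the basement membrane collagen Col4a1 (0.948), for Dcn Prnp (0.935), Zfp438 (0.927) and Rai14 (0.919), and for Bgn Mtus2 (0.926), Bloc1s2 (0.923) and Ptrhd1 (0.922). For Fn1 they were Crtc2 (0.963), Lima1 (0.940) and Slc35e3 (0.936), for Thbs1 Clec2g (0.956), Gca (0.954) and the matrix proteoglycan Agrn (0.949), and for Thbs2 Pctp (0.955), Mal (0.915) and AC109901.2 (0.909). For Fmod the highest was LOC100911674 (0.910), then Mbp (0.887) and Ing5 (0.870), for Postn Myc (0.887), Gm26330 (0.872) and Dcn (0.867), and for Tnc Arf2 (0.918), Mpzl1 (0.903) and Lilrb2 (0.886). All points share libraries with their own scaling factors. The values of Postn and Tnc, which did not pass the filter, rest on few reads.

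Other genes of the same families and pathways set these values in context. Their counts for CCl4 against control stand beside 13.4% of all genes called higher and 6.71% called lower. Among 8 other small leucine-rich proteoglycans tested, 3 rose with CCl4 and none fell, with a median log2 difference of 0.82. These were asporin, Aspn (1.54 to 6.84 FPM mean, log2 difference 2.14, adjusted p 0.0115), osteoglycin, Ogn (5.05 to 20.6 FPM, 2.03, adjusted p 0.00257), and Prelp (24.3 to 42.3 FPM, 0.80, adjusted p 0.0393), all by edgeR's quasi-likelihood test. Aspn and Ogn also rose in CCl4+eplerenone against control.

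Among 18 other matricellular genes tested, 8 rose with CCl4 and 1, Smoc1, fell, with a median log2 difference of 1.32. The largest rises were those of Ccn2, the connective tissue growth factor (5.09 to 126 FPM, log2 difference 4.63), Fbln1, fibulin 1 (0.746 to 11.3 FPM, 3.90), Spp1, osteopontin (2.81 to 22.7 FPM, 3.01), and Ccn5 (0.462 to 3.18 FPM, 2.76). Their adjusted p-values by edgeR's quasi-likelihood test were between 0.00116 and 0.0122. In CCl4+eplerenone livers the means were 55.4 FPM for Ccn2, 6.72 for Fbln1, 10.4 for Spp1 and 2.41 for Ccn5, none called against CCl4.

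Type I collagen makes up the main fibrils that decorin and lumican bind. Of 8 collagens tested 3 rose and 1 fell, with a median of 0.78. Col1a1 (5.03 to 51.8 FPM, log2 difference 3.36), Col6a2 (30.1 to 78.1 FPM, 1.38) and Col3a1 (125 to 216 FPM, 0.79) rose and Col5a1 (14.4 to 7.41 FPM, -0.96) fell. Of 15 proteases and crosslinking enzymes of the matrix 5 rose and 1, Bmp1, fell, with a median of 0.14. These included the macrophage elastase Mmp12 (0.398 to 18.4 FPM, 5.48), the collagen crosslinkers Lox (0.658 to 13.04 FPM, 4.29) and Loxl1 (2.00 to 26.4 FPM, 3.72), and the procollagen processing enhancer Pcolce (5.75 to 34.2 FPM, 2.57).

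Of 13 genes of TGF-beta and its latency proteins 7 rose and none fell, with a median of 1.75. Among them were the latent TGF-beta binding proteins Ltbp2 (0.997 to 12.7 FPM, log2 difference 3.66), Ltbp1 (7.64 to 33.9 FPM, 2.15) and Ltbp3 (3.01 to 12.9 FPM, 2.10). Among 25 receptors that bind these matrix proteins 7 rose and 5 fell, with a median of 0.06, close to that of all genes. The integrin chains Itga8 (0.884 to 11.7 FPM, 3.72) and Itgb6 (0.429 to 5.03 FPM, 3.54) and the hyaluronan and osteopontin receptor Cd44 (1.19 to 14.5 FPM, 3.60) rose, and P2rx7 (38.3 to 8.98 FPM, -2.10), an ATP receptor linked to biglycan signalling, fell.

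Among 25 genes for making the glycosaminoglycan chains of these proteoglycans 5 rose and 2, Chst13 and Papss2, fell, with a median of 0.05. Of all genes 13.4% were called higher and 6.71% lower, so these counts are not read as particular to the list. The chondroitin polymerizing factor Chpf (4.07 to 20.8 FPM, 2.35), the sulphotransferases Chst12 (1.02 to 5.26 FPM, 2.36) and Chst14 (1.35 to 3.43 FPM, 1.34), and B3gnt7 of keratan sulphate synthesis (0.991 to 3.28 FPM, 1.72) rose. None of the genes in these 7 lists was called in CCl4+eplerenone against CCl4 by edgeR's quasi-likelihood test over all libraries. With CCl4 replicate 5 and CCl4+eplerenone replicate 3 both left out, 1294 of 14126 genes were called there, among them 5 higher and 1 lower of 24 receptors, 1 higher and 3 lower of 13 TGF-beta genes, and 3 lower of 17 matricellular genes. The other lists then had 2 of 8 collagens and 2 of 24 glycosaminoglycan genes called higher, 1 higher and 2 lower of 14 proteases, and 1 of 8 other small leucine-rich proteoglycans called lower. Both livers were picked for lying toward the other group, so these counts are no separate support for an effect of eplerenone. In CCl4+eplerenone against control, with 4.33% of all genes called higher, the genes called higher were 4 of 13 for TGF-beta, 4 of 15 for proteases, 3 of 18 for other matricellular genes, 3 of 25 for receptors, 2 of 25 for glycosaminoglycan synthesis, 2 of 8 for collagens and 2 of 8 for other small leucine-rich proteoglycans. The receptor Sdc1, Papss2 and Bmp1 were called lower.

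**Figure D4:**
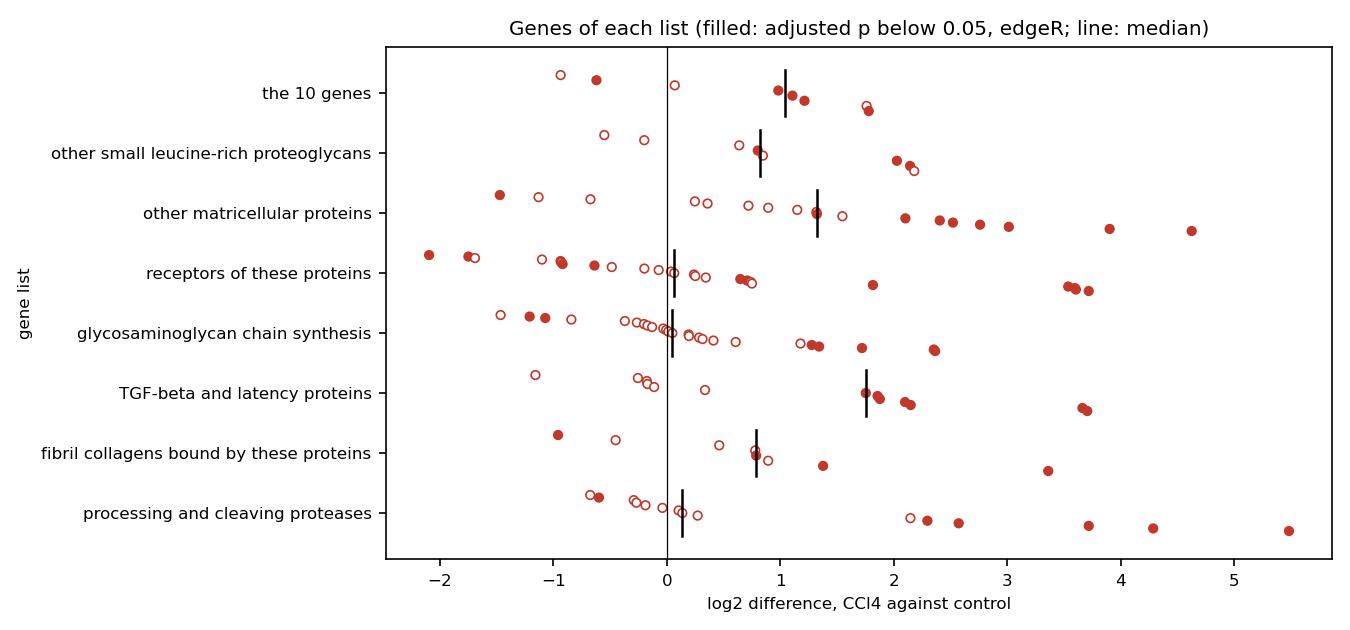
Log2 difference between CCl4 and control (x axis) of each gene tested, by list, with the list's median as a vertical line and filled points for an adjusted p below 0.05 in edgeR's quasi-likelihood test. The medians lie at 1.04 for the 10 genes (8 tested), 1.32 for other matricellular genes and 1.75 for TGF-beta genes, and near 0 for receptors and glycosaminoglycan synthesis.

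Markers of the cell types that can make these proteins, and of others in the liver, were summed in each library. Counts of markers called with CCl4 stand beside 13.4% of all genes called higher and 6.71% called lower. Hepatocyte markers, which the label liver calls for, were abundant in every library, and their summed level was 135808 to 150475 FPM in controls, 73738 to 141420 in CCl4 and 73188 to 132872 in CCl4+eplerenone livers. Alb made up most of this sum, with means of 122797 FPM in control, 79392 in CCl4 and 92031 in CCl4+eplerenone livers. Of 8 hepatocyte markers 1, the transcription factor Hnf4a, was called lower with CCl4. The others were not called. Of these, Alb, Ttr, Cps1, Tat and Asgr1 had lower means with CCl4, and Apoa1 (1936 to 3242 FPM) and Cyp2e1 (1913 to 2003) higher ones. The summed level of 10 stellate cell and myofibroblast markers was 95.4 to 150 FPM in controls, 117 to 308 in CCl4 and 167 to 292 in CCl4+eplerenone livers, and 5 of the 10 rose with CCl4 (Acta2, Tagln, Des, Pdgfra and Cygb). The other 5 were not called. Of these, Lrat (16.9 to 7.93 FPM mean), Reln (14.4 to 7.16) and Hgf (24.0 to 18.2) were lower with CCl4, and Pdgfrb and Rgs5 were higher. For portal fibroblasts the sums were 11.3 to 15.8, 17.97 to 71.5 and 25.1 to 57.8 FPM, and 3 of 6 markers tested rose (Thy1, Eln and Entpd2).

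CCl4 replicate 5, the liver with low Sparc and Lum, had the lowest stellate (117 FPM) and portal fibroblast (17.97 FPM) sums and the highest hepatocyte sum (141420 FPM) of the CCl4 group. CCl4+eplerenone replicate 3 had the highest stellate sum (292 FPM) and the lowest hepatocyte sum (73188 FPM) of its group. The part of cell composition in the differences of the 10 genes was not tested.

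All 5 cholangiocyte markers rose with CCl4, from sums of 12.8 to 19.4 FPM in controls to 42.4 to 100 in CCl4 livers, with 34.0 to 88.0 in CCl4+eplerenone livers. Of 4 mesothelial markers 1, Msln, rose, with sums of 4.64 to 9.65, 28.6 to 100.8 and 10.4 to 46.6 FPM. Msln made up most of these sums, with means of 4.73 FPM in control, 59.0 in CCl4 and 16.4 in CCl4+eplerenone livers. Endothelial sums were 168 to 211, 50.3 to 200 and 127 to 200 FPM and 1 of 5 markers, Kdr, fell. None of 6 macrophage or 3 smooth muscle markers tested was called, with sums of 203 to 363, 88.2 to 375 and 154 to 449 FPM for macrophages and 16.5 to 28.0, 15.5 to 43.2 and 18.1 to 26.5 FPM for smooth muscle. For platelets, a store of thrombospondin 1, the sums were 21.2 to 26.7, 18.6 to 44.8 and 10.3 to 24.8 FPM, with 12.99 FPM in CCl4+eplerenone replicate 3, where Thbs1 was highest, and 1 of 2 markers tested, Pf4, rose with CCl4. The larger part of these sums was Itga2b, with means of 23.0 FPM in control, 16.9 in CCl4 and 13.4 in CCl4+eplerenone livers. Of 6 endothelial markers chosen 5 were among the counted genes, and Pecam1 was not. No marker gene that was counted had 0 reads in all libraries.

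**Figure D5:**
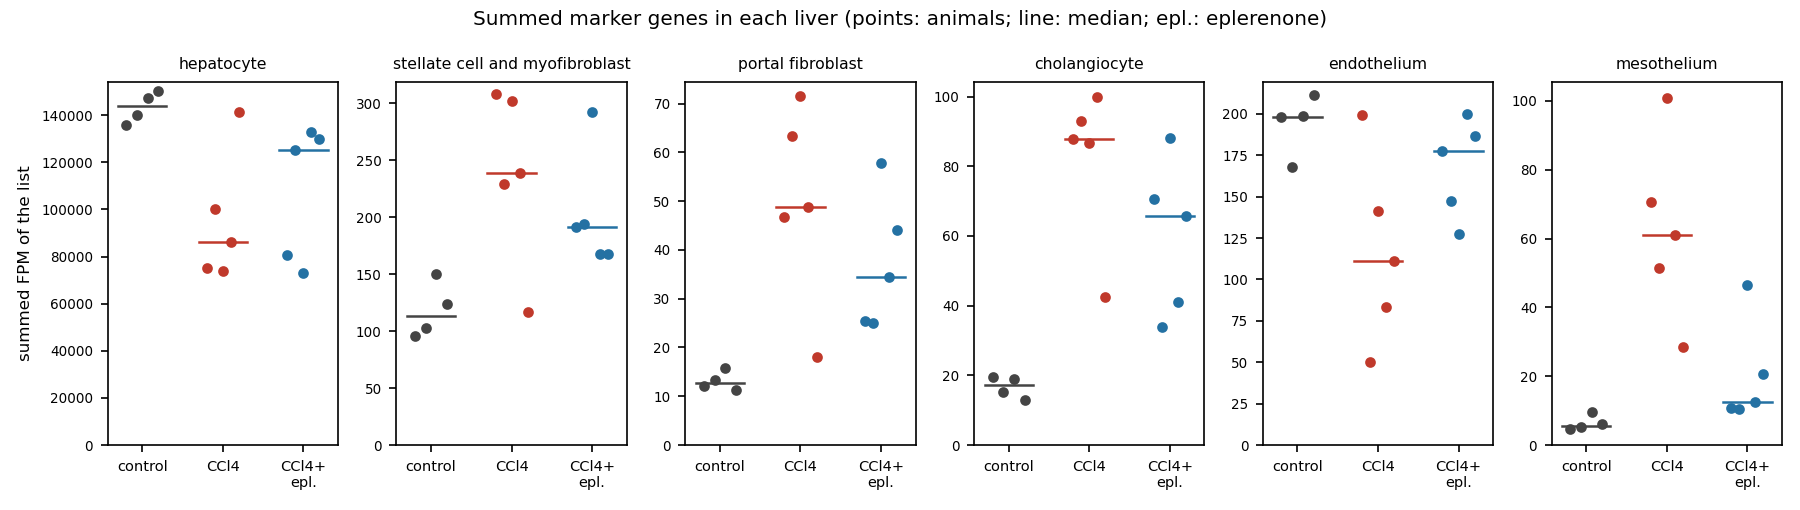
Summed FPM (y axis) of marker genes of 6 cell types in every liver, by group, with points for rats and a line at the median. CCl4 replicate 5 is the CCl4 liver with the highest hepatocyte sum and the lowest stellate, portal fibroblast, cholangiocyte and mesothelial sums.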

How the data were processed

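The labels list livers of 15 rats, whose poly(A) RNA was sequenced by the authors as paired reads of 150 bp, mapped to rn6 with HISAT2 2.1.0 and counted over exons of the Ensembl annotation with featureCounts, which was set to count multimapping reads everywhere they align. The deposited table holds raw counts per gene with no normalization. It has columns for 14 of the 15 livers, and control replicate 1 was not analysed here. Whether the counting used strand is not given in the sources used here.

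Samples were grouped by the treatment label. Counts were filtered with filterByExpr of edgeR 4.0.16 (smallest count 10), scaled by TMM, and the 3 groups were fitted in 1 quasi-likelihood model in R 4.3.3, with the DESeq2 1.42.0 Wald test beside it. P-values were adjusted over all 14417 genes tested. The test script was tested on simulated data. Intervals are 95% intervals, and a prior count of 2 was used for log2 FPM. Limits from 3 reads cover counting error only.

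The 10 genes and the gene lists were chosen with earlier results of these data known, and cell type markers from general knowledge. From each list the text names the 4 genes with the largest change among those called between CCl4 and control with a mean of at least 1 FPM, other names being those of called genes given to account for a count. An item that this rule would name is not reported here. For likeness it names the 3 genes with the highest r. Alternatives were other scaling, filters, tools, sample sets, a replicate block, a name prefix term and each library left out.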

Additional observations from a re-analysis of the deposited data

Results flagged for a closer look

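Thbs1, thrombospondin 1, was at 19.8 FPM in CCl4+eplerenone replicate 3, far from the other 4 livers of that group, which lay between 0.874 and 3.78 FPM. The gap to the nearest liver was 0.847 of the group's whole range, more than Dixon's test allows at its 95% level for 5 samples. It was 1 of 29 groups of values tested, and chance alone singles out about 1 in 20. The 3 livers with the highest Thbs1, this one and CCl4 replicates 2 (7.88 FPM) and 4 (6.82 FPM), were also those with the 3 highest TMM factors of the 14 libraries, 1.40, 1.14 and 1.21. Their raw counts, 490, 193 and 133 reads, were also the 3 highest of the 14. A higher TMM factor lowers the FPM of a library. What links Thbs1 to the TMM factors was not tested. The summed platelet markers were at 12.99 FPM in CCl4+eplerenone replicate 3, below the 21.2 to 26.7 FPM of the controls. Itga2b made up most of that sum, with a mean of 23.0 FPM in controls and 13.4 in CCl4+eplerenone livers. Pf4 went the other way, from 0.539 to 5.37 FPM. The platelet content of the livers was not tested.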

How the results depend on the processing

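With other scaling, filters, tools, sample sets or each library left out, Dcn and Bgn were called higher in CCl4 against control every time, and the number of the 8 genes called ranged from 2 to 6 (main 5) over the leave-one-out fits, with 6 without CCl4 replicate 5. It was 3 with only the 2 groups compared. In CCl4+eplerenone against control the leave-one-out count ranged from 0 to 3 (main 2), with 0 without control replicate 5 or CCl4+eplerenone replicate 3 and 3 without CCl4 replicate 5. With 4 rats per group it was 1 there, with 688 of 14126 genes called, and 1 in place of 0 in CCl4+eplerenone against CCl4, with 1294 of 14126 genes called. The 2 livers left out of that fit were picked for lying toward the other group on the first principal component. The share of all genes called is not given for the leave-one-out fits or for the fit with only the 2 groups compared. Changes in those counts therefore cannot be told apart from a change in calls over all genes. The causes of these changes were not tested.

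Same-numbered rats did not deviate together, since only 3 of 13 pairs of equal replicate number had a correlation over 0.1 (range -0.33 to 0.18) and 0 of 14 samples correlated best with their own number, so the numbers are not taken as pairs. With the replicate number as a block, 2 genes were called in CCl4 against control and 0 in CCl4+eplerenone against control, and the Sparc difference between CCl4+eplerenone and CCl4 was 0.0022. The share of all genes called in that fit is not given, so these counts cannot be set against it.

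The differences that changed sign were all uncalled. With total counts in place of TMM, Lum differed by 0.074 between CCl4+eplerenone and CCl4 and Fn1 by 0.050 between CCl4+eplerenone and control. With 4 rats per group, Thbs1 differed by -0.93 from CCl4 and by -0.68 from control, and with the name prefix as a term Sparc differed by 0.030 from CCl4. Leaving out 1 library gave ranges of -0.45 to 0.38 for Thbs1 in CCl4 against control, -0.68 to 1.04 for Thbs1 in CCl4+eplerenone against control, and, in CCl4+eplerenone against CCl4, -0.44 to 0.018 for Dcn, -0.31 to 0.010 for Bgn, -0.86 to 0.24 for Lum, -0.28 to 0.12 for Sparc and -0.79 to 1.19 for Thbs1.

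Requiring 10 counts in every sample left 5 of the 8 genes to test. Low counts limit Lum, Fmod, Thbs1, Postn and Tnc. With 4 or 5 rats per group, the intervals given are what bounds an absent call.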
